A study of Mus musculus with 6 samples.

Results

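The tricarboxylic acid (TCA) cycle oxidises acetyl units in the mitochondrial matrix, and the glutamate and aspartate transaminases feed carbon into it. The malate-aspartate shuttle uses some of the same enzymes in cytosol and matrix to carry reducing equivalents across the inner membrane, and citrate that leaves the matrix is cleaved to acetyl-CoA for lipid synthesis and protein acetylation. Activated CD8+ T cells draw on these routes for energy, aspartate and building blocks. The 31 genes described here encode enzymes and carriers of these routes. They were taken by symbol from the 55335 gene identifiers of the count table, and 31 of 31 were found and passed the filter on low counts.

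Both groups were donor CD8+ T cells of 10-week-old C57BL/6 background that carry the P14 receptor transgene, which recognises the GP33-41 peptide. They had been transferred into C57BL/6 mice on day 11 after implantation of B16-GP33-41 melanoma cells. P14 TIL cells were sorted from the tumors (3 libraries) and P14 Sp cells from the spleens of the same tumor-bearing mice (3 libraries), so both groups had a tumor-bearing host. A Percoll step preceded the sort for tumors alone, and codes in the sample descriptions end differently in the 2 groups. Tissue, Percoll step and code therefore cannot be told apart. The recipients' own cells were not removed other than by the sort, and the labels do not say whether animals were pooled. In bulk libraries, fewer cells of a type and less RNA per cell cannot be told apart.

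Library totals ranged from 36198681 to 38263483 counts in TIL and from 35095261 to 37650999 in Sp. TIL libraries varied more than Sp libraries, with a common biological coefficient of variation of 10.5% in TIL and 3.21% in Sp. TIL replicate 3 stood apart from the other TIL libraries: the chi-square per degree of freedom of their counts was 33.2 against TIL replicate 1 and 19.7 against TIL replicate 2, while it was 9.06 between TIL replicates 1 and 2 and at most 3.48 between Sp libraries. The CD8 chain gene Cd8b1 was at 751 ± 36.9 CPM (a gene's counts scaled to the library total; SD, n = 3) in TIL and 1174 ± 12 CPM in Sp, and Cd8a at 645 ± 21.4 and 364 ± 6.62 CPM. Markers of other cells differed between the groups. Summed B cell markers were at 10.8 to 12.9 CPM in TIL and 593 to 611 CPM in Sp (10 of 10 lower in TIL, Cr2 at 0 counts in TIL), led by Cd79b in TIL and Cd79a in Sp. Macrophage and monocyte markers summed to 31.2 to 31.8 CPM in TIL and 232 to 243 CPM in Sp (10 of 10 lower), led by Csf1r in TIL and Lyz2 in Sp. Dendritic cell markers, led by Itgax, summed to 44.6 to 48.5 CPM in TIL and 161 to 166 CPM in Sp (5 of 5 lower, Siglech at 0 counts in TIL). Erythroid markers were higher in TIL (5 of 5; 247 to 274 CPM in TIL, 207 to 210 CPM in Sp), and so were heat shock genes (7 of 7; 3942 to 4093 CPM in TIL, 1524 to 1542 CPM in Sp). Sums for CD4 T cells (30.4 to 31.6 CPM in TIL, 25.4 to 27.6 CPM in Sp), natural killer cells (15.6 to 18 CPM in TIL, 18.2 to 20.7 CPM in Sp) and melanoma (9.41 to 10.7 CPM in TIL, 19.4 to 21.4 CPM in Sp, Tyrp1 at 0 counts in Sp) were low in both. Cd40lg led the CD4 sum in TIL and was higher there (20.1 CPM in TIL, 8.66 CPM in Sp), while Cd4 was lower (1.07 and 7.52 CPM). Foxp3 did not pass. Pmel led the melanoma sum and was lower in TIL (8.54 and 19.8 CPM), while Dct was higher (0.46 and 0.00885 CPM). Mlana and Tyrp1, at low counts and untested, lay above Sp in each TIL library. Tyr and Mitf overlapped between the groups. The part of these other cells and of heat shock in the results below was not tested.

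Of the 31 genes, 20 were higher in TIL (64.5%), 2 were lower (6.45%) and 9 did not pass the test. Without TIL replicate 3, 21 were higher and 3 lower, beside 7191 higher and 7518 lower of 20301 genes tested. That made 24 of the 31 passing, while leaving out any other single library gave 20 or 21. The test was edgeR's quasi-likelihood F-test with Benjamini-Hochberg adjustment over 19783 genes and a threshold of 0.05. Over all genes tested, 34.8% were higher and 35.9% lower in TIL (70.7% in all). Among the 12159 genes whose mean level was at least that of the lowest of the 31 (5.93 CPM), 41.5% were higher and 35.2% lower (76.7% in all). The median log2 fold change of the 31 genes, TIL over Sp, was 0.28, against -0.02 over all genes tested and 0.06 among those 12159. Most changes were small. Against a null of a 1.5-fold change, 8 of the 31 genes were higher in TIL (background 14.9%) and 1 was lower (background 17.5%, and 32.4% in both directions). Among the 12159 genes at or above the lowest of the 31, 16.3% were higher and 13.4% lower by this test. That is a floor on the level and not a match of it. The 8 were Gpt2, Slc25a13, Got1, Got2, Mdh2, Idh3a, Fh1 and Mdh1, and the lower gene was Idh1. CPM values of the groups did not overlap for 26 of the 31 genes (83.9%, background 74.5%). Together the 31 genes took 3942, 3964 and 3924 CPM in TIL and 3224, 3220 and 3193 CPM in Sp.

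**Figure D1:**
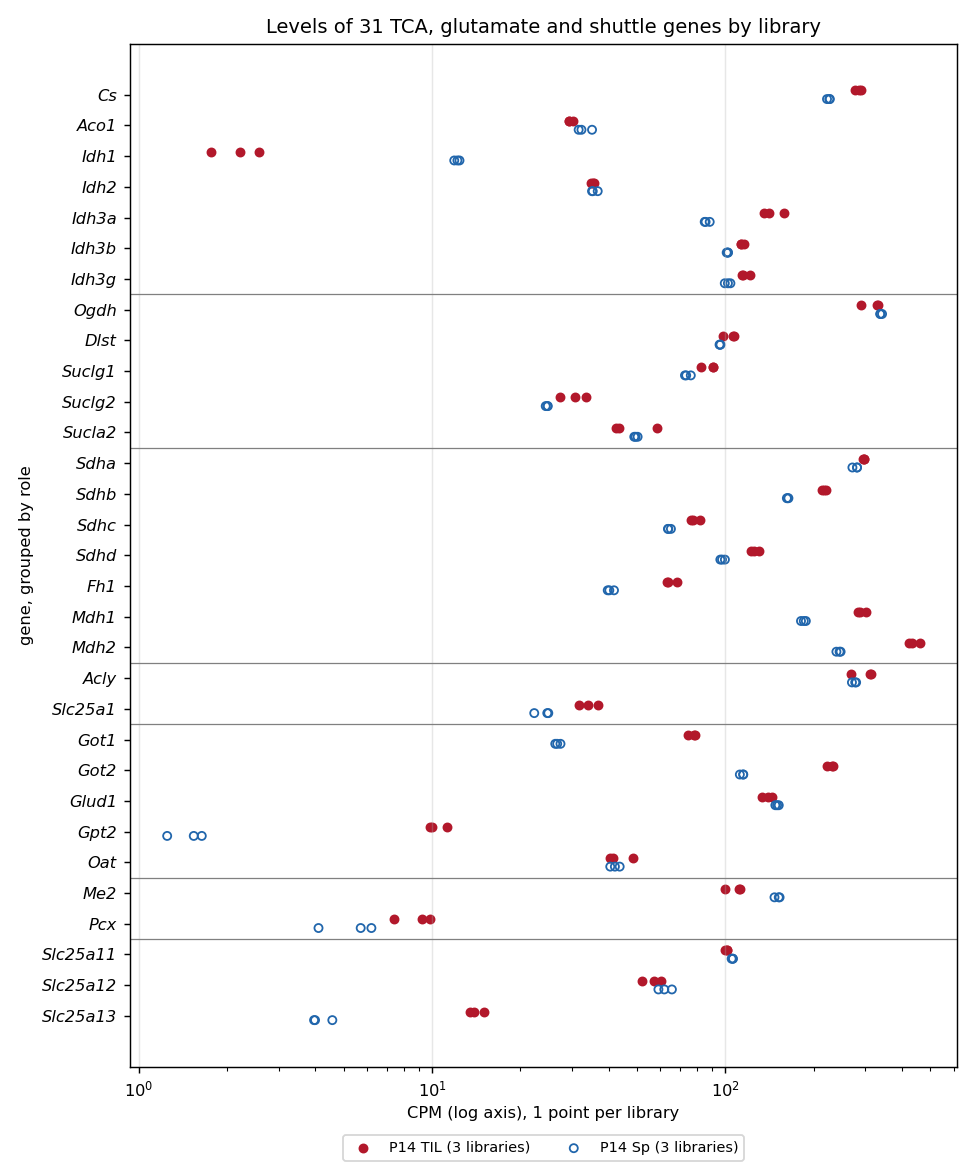
CPM of each of the 31 genes in every library on a log axis, with TIL libraries as filled red points above Sp libraries as open blue points, and rows grouped by role. Gpt2, Slc25a13 and Got1 lie furthest to the right of their Sp points, Idh1 lies far to the left of its Sp points, and most other genes differ by little.

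Promoter sequences of the 3 genes with the largest rises, Gpt2, Slc25a13 and Got1, and of Idh1, the gene with the largest fall, are shown because these genes carry the comparison. They are from RefSeq (GRCm38.p6, which has the coordinates of mm10) and run from 250 bases before to 50 bases after the annotated start, 5′ to 3′ in the direction of the gene. Capitals mark matches to the motifs searched on both strands, which were CACGTG and its core ACGTG (every CACGTG counts for both), the motif of the factor NRF1 (with 1 free base at its centre), CCGGAAG and AAGGTCA. Of 2 annotated Idh1 starts, the outer one is shown.
Gpt2, chr8:85492326-85492625, plus strand: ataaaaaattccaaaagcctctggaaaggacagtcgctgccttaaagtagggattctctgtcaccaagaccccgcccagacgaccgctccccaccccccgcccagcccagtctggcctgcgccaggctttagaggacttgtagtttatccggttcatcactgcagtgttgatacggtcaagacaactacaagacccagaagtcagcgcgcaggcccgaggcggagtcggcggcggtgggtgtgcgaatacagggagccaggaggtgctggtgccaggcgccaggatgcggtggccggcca
Slc25a13, chr6:6217124-6217423, minus strand: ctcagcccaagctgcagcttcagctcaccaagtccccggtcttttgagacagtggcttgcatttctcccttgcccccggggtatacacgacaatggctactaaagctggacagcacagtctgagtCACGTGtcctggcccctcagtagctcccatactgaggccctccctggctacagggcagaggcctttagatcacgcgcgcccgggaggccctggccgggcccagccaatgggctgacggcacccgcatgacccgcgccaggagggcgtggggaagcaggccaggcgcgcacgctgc
Got1, chr19:43524556-43524855, minus strand: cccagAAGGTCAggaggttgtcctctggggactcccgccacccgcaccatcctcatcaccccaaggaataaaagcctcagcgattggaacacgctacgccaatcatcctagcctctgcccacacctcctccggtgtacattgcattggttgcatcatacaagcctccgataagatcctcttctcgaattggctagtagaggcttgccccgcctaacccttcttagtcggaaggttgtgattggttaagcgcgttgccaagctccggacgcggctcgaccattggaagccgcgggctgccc
Idh1, chr1:65186430-65186729, minus strand: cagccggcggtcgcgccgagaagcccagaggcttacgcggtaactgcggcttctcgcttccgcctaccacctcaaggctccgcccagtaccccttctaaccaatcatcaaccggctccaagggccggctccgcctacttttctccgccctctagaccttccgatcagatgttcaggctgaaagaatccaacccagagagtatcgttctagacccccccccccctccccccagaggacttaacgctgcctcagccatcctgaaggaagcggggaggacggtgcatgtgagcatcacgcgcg

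The Slc25a13 window held 1 CACGTG, the E-box bound by MYC family and related factors. The Got1 window held 1 AAGGTCA, a sequence bound by estrogen-related receptors. Neither the Gpt2 window nor either Idh1 window held any of the 5. Promoters were found for 28 of the 31 genes, without Idh3a, Me2 and Sdhc. CACGTG occurred in 4 of the 28 (14.3%), against 8.09% of 27025 genes in the table. ACGTG occurred in 9 (32.1%, all genes 21.8%), the NRF1 motif in 3 (10.7%, all genes 5.19%), CCGGAAG in 6 (21.4%, all genes 9.93%) and AAGGTCA in 3 (10.7%, all genes 5.38%). A gene counted if any of its windows held a match. The 27025 genes were not matched to the 28 for expression, base composition or number of windows. These shares are a description, without a test, and a match is not a site.

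**Figure D2:**
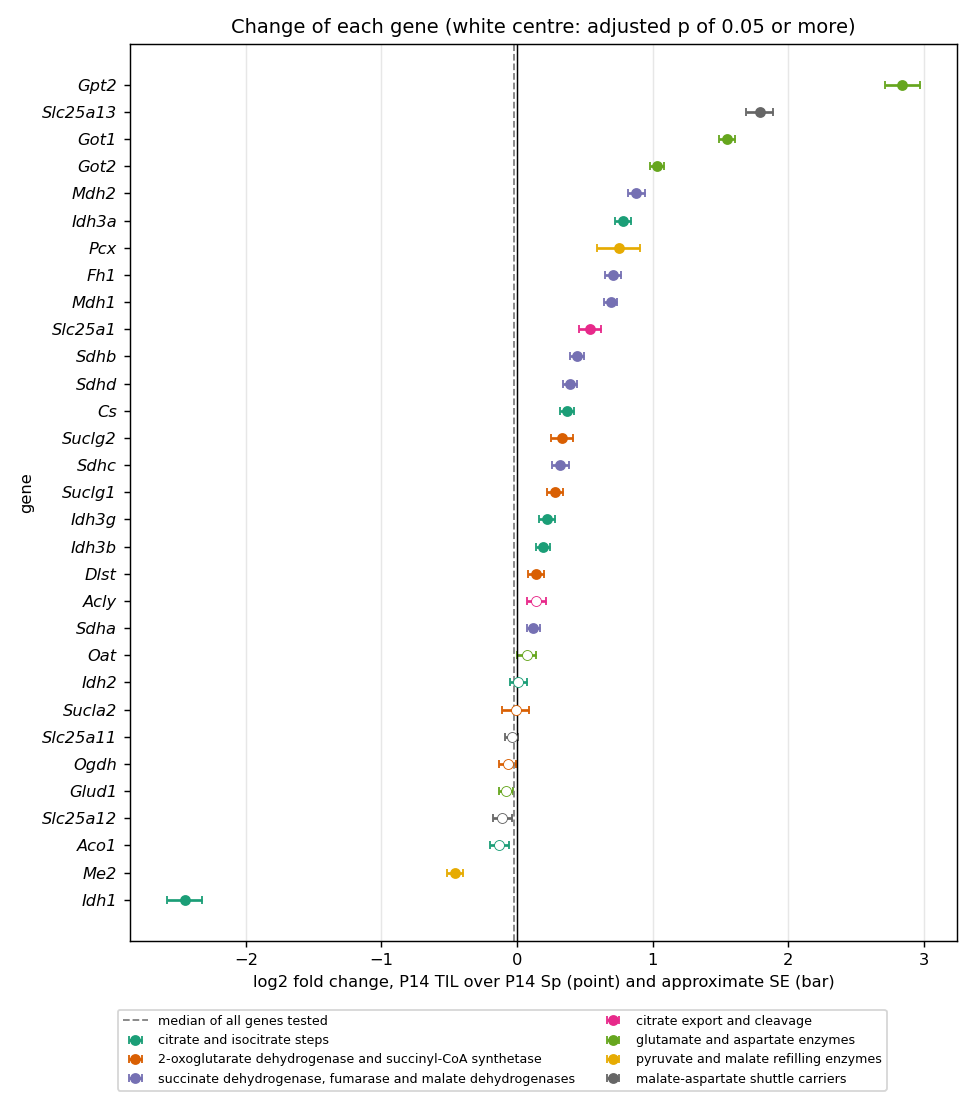
Log2 fold change of each gene, TIL over Sp, with its approximate SE, coloured by role, with a dashed line at the median of all genes tested (-0.02). Values run from -2.45 for Idh1 to 2.84 for Gpt2, and white centres mark the 9 genes that did not pass.

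The genes of the citrate and isocitrate steps did not move as a block, with 4 of 7 higher, 1 lower and 2 not passing. Over all genes tested, 34.8% were higher and 35.9% lower. Cs, citrate synthase, which joins acetyl-CoA and oxaloacetate, was at 289, 286 and 277 CPM in TIL and at 227, 226 and 222 CPM in Sp. All TIL libraries lay above all Sp libraries (1.29-fold, log2 0.37, SE 0.05, edgeR adjusted p = 6.7e-05). Idh3a, the catalytic subunit of the NAD-linked isocitrate dehydrogenase of the cycle (chromosome 9, 54586334 to 54604661, mm10), was at 135, 141 and 159 CPM in TIL and at 85, 88.4 and 85.6 CPM in Sp (1.71-fold, log2 0.78, SE 0.06, adjusted p = 6.7e-07). The groups were well apart, and TIL replicate 3 was the highest. The other subunits of that enzyme, Idh3b and Idh3g, rose by less, with log2 fold changes of 0.19 and 0.22 (adjusted p = 0.0066 and 0.005).

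Idh1 went the other way. It encodes the cytosolic, NADP-linked isocitrate dehydrogenase, which makes NADPH outside mitochondria (chromosome 1, 65158616 to 65186500, mm10). It was at 1.76, 2.56 and 2.21 CPM in TIL, from 64 to 98 counts a library, and at 12.4, 11.9 and 12.2 CPM in Sp, from 427 to 454 counts. The highest TIL library was far below the lowest Sp library, and Idh1 was 5.47-fold lower in TIL (log2 -2.45, SE 0.13, edgeR adjusted p = 1.9e-08). Summed B cell and macrophage markers were lower in the same libraries, and their part in this fall was not tested. Idh2, the mitochondrial NADP-linked enzyme, was at 35.4, 35.7 and 34.7 CPM in TIL and at 35.1, 36.7 and 35.3 CPM in Sp. These groups overlapped, with a log2 fold change of 0.01 (approximate 95% interval -0.11 to 0.13, adjusted p = 0.87). Aco1, cytosolic aconitase, which also binds iron-responsive RNA elements, was at 29.3 to 30.2 CPM in TIL and 31.6 to 35.1 CPM in Sp (log2 -0.13, adjusted p = 0.11).

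Around 2-oxoglutarate dehydrogenase and succinyl-CoA synthetase, 3 of 5 genes were higher in TIL and 2 did not pass, and none passed the 1.5-fold null (edgeR glmTreat adjusted p = 1 for each). Of all genes tested, 34.8% were higher, and 32.4% passed the 1.5-fold null in either direction. Ogdh, the first subunit of the dehydrogenase complex, was at 329, 330 and 289 CPM in TIL and at 338, 337 and 342 CPM in Sp (log2 -0.07, adjusted p = 0.34). TIL replicate 3 was well below the rest, and the other TIL libraries were just under the Sp range. Dlst, the subunit that forms succinyl-CoA, was at 98.1 to 107 CPM in TIL and 95.5 to 96.2 CPM in Sp, and its small rise (log2 0.14, adjusted p = 0.043) lost its call in 10 of 15 alternatives (adjusted p from 0.059 to 0.18). Suclg1, the subunit shared by both forms of the synthetase, rose 1.21-fold (adjusted p = 0.0012). Suclg2, of the GTP-forming enzyme, was at 27.2, 30.8 and 33.4 CPM in TIL and at 24.4, 24.8 and 24.7 CPM in Sp, above Sp in each TIL library (1.26-fold, adjusted p = 0.0024). Its counts may be shared with Gm15163, a pseudogene that is 99.2% identical over 1212 bases, and with those counts added the log2 fold change was 0.36 in place of 0.33. Sucla2, of the ATP-forming enzyme, was at 42.4, 43.4 and 58.6 CPM in TIL and at 48.9, 49.4 and 50.2 CPM in Sp (log2 -0.01, adjusted p = 0.91). TIL libraries 1 and 2 lay below Sp and library 3 above it, and without TIL replicate 3 Sucla2 was lower in TIL (log2 -0.16, adjusted p = 0.014).

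From succinate to oxaloacetate, 7 of 7 genes were higher in TIL (34.8% of all genes tested), with a median log2 fold change of 0.44. Succinate dehydrogenase, which is also complex II of the respiratory chain, rose little. Sdhb, its iron-sulfur subunit, was at 214, 220 and 217 CPM in TIL and at 163, 164 and 162 CPM in Sp (1.36-fold, edgeR adjusted p = 9.7e-06). The membrane anchor subunits Sdhd and Sdhc rose 1.31-fold and 1.25-fold. Sdha, the flavoprotein subunit, was at 294 to 297 CPM in TIL and 271 to 281 CPM in Sp, a rise of 1.09-fold (adjusted p = 0.045). The call of Sdha was lost in 11 of 15 alternatives (adjusted p from 0.052 to 0.23).

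Fumarase and both malate dehydrogenases rose more. Fh1, fumarase, was at 63.1, 63.6 and 68.6 CPM in TIL and at 40.2, 39.7 and 41.7 CPM in Sp (1.64-fold, log2 0.71, SE 0.06, edgeR adjusted p = 9.3e-07). Mdh2, the mitochondrial malate dehydrogenase of the cycle (chromosome 5, 135778480 to 135790398, mm10), was at 460, 433 and 423 CPM in TIL and at 245, 247 and 239 CPM in Sp (1.84-fold, log2 0.88, SE 0.06, adjusted p = 1.1e-07). Mdh1, the cytosolic enzyme of the shuttle, was at 287, 284 and 302 CPM in TIL and at 188, 185 and 181 CPM in Sp (1.61-fold, log2 0.69, SE 0.05, adjusted p = 3.1e-07). The groups stood apart for all 3. Fh1 and Mdh1 were close to the 1.5-fold null (adjusted p = 0.026 and 0.031). That call was lost for both with upper-quartile scaling (0.11 and 0.17), with library totals alone (0.062 and 0.075) and without Sp replicate 1 (0.078 and 0.059) or 2 (0.084 and 0.065). For Mdh1 it was also lost without Sp replicate 3 (adjusted p = 0.093), with the replicate block (adjusted p = 0.055) and among genes of at least 1 CPM (adjusted p = 0.059).

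Of the glutamate and aspartate enzymes 3 of 5 were higher (all genes 34.8%), and the same 3 passed the 1.5-fold null (all genes 14.9% higher). Gpt2, the mitochondrial alanine transaminase, which turns glutamate and pyruvate into 2-oxoglutarate and alanine, is on chromosome 8 (85492576 to 85527560, mm10). It was at 10, 11.2 and 9.86 CPM in TIL, from 357 to 430 counts a library, and at 1.64, 1.25 and 1.54 CPM in Sp, from 47 to 60 counts. Each TIL library was several-fold above each Sp library (7.17-fold, log2 2.84, SE 0.13, edgeR adjusted p = 8.3e-09). Got1 is the cytosolic aspartate transaminase, which interconverts aspartate and oxaloacetate (chromosome 19, 43499752 to 43524605, mm10). Got1 was at 74.6, 78.2 and 78.6 CPM in TIL and at 26.3, 27.4 and 26.7 CPM in Sp (2.94-fold, log2 1.55, SE 0.06, edgeR adjusted p = 1.4e-09). Within each group the libraries were close, and the groups were far apart.

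Got2, the mitochondrial aspartate transaminase, was at 222, 231 and 233 CPM in TIL and at 115, 112 and 115 CPM in Sp (2.04-fold, log2 1.03, SE 0.05, edgeR adjusted p = 1.1e-08). Its own level is uncertain, because gene models with nearly its sequence also took counts. Got2-ps1, 99.1% identical over 1293 bases, was at 113 CPM in TIL and 55.8 CPM in Sp, and Gm10874, 98.8% identical over 1637 bases, at 133 and 64.5 CPM. With their counts added to Got2, an alternative chosen after seeing the data, the log2 fold change was 1.04. Glud1, glutamate dehydrogenase, which deaminates glutamate to 2-oxoglutarate, was at 133, 144 and 140 CPM in TIL and at 152, 150 and 148 CPM in Sp. The groups did not overlap, but the difference did not pass (log2 -0.08, adjusted p = 0.19). Glud1 counts may be shared with Glud-ps, 97.6% identical over 656 bases, at 17.4 CPM in TIL and 17.9 CPM in Sp. Gm43444, 97.6% identical over 287 bases, was at 6.99 and 7.04 CPM. With the counts of both added, the log2 fold change of Glud1 was -0.07. Oat, ornithine aminotransferase, was at 40.3, 41.4 and 48.4 CPM in TIL and at 40.5, 43.6 and 42 CPM in Sp, with overlap (log2 0.07, adjusted p = 0.39).

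Of the carriers of the malate-aspartate shuttle, 1 of 3 rose (all genes 34.8%). Slc25a13, which encodes the aspartate-glutamate exchanger citrin (chromosome 6, 6041218 to 6217173, mm10), was at 13.5, 13.9 and 15 CPM in TIL and at 3.99, 4.57 and 3.96 CPM in Sp (3.45-fold, log2 1.79, SE 0.10, edgeR adjusted p = 3.2e-08). Its relative Slc25a12, aralar, which exchanges the same substrates, was at 51.9, 60.3 and 57.3 CPM in TIL and at 61.9, 59.1 and 65.7 CPM in Sp. Those groups overlapped (log2 -0.11, approximate 95% interval -0.25 to 0.03, adjusted p = 0.18). Slc25a12 shares 247 bases at 99.6% identity with the coding gene Adpgk (29.1 CPM in TIL, 28.9 CPM in Sp), whose counts were not added. Slc25a11, the 2-oxoglutarate-malate carrier, was at 99.7 to 101 CPM in TIL and 105 to 106 CPM in Sp (log2 -0.04, adjusted p = 0.48).

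The citrate exporter gene Slc25a1 was at 34.1, 36.7 and 31.8 CPM in TIL and at 24.7, 24.9 and 22.3 CPM in Sp, above Sp in each TIL library (1.46-fold, edgeR adjusted p = 8.9e-05). Acly, ATP-citrate lyase, which splits the exported citrate, was at 314, 312 and 268 CPM in TIL and at 277, 279 and 270 CPM in Sp (log2 0.14, adjusted p = 0.088). TIL replicates 1 and 2 lay above all Sp libraries and replicate 3 just below them, and without it Acly was higher in TIL (log2 0.23, adjusted p = 0.00013).

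The 2 genes that refill or drain the cycle at malate and pyruvate differed in opposite directions. Pcx, pyruvate carboxylase, which makes oxaloacetate from pyruvate, was at 9.21, 9.8 and 7.4 CPM in TIL and at 6.21, 5.71 and 4.1 CPM in Sp (1.68-fold, log2 0.75, SE 0.16, edgeR adjusted p = 0.0014). The spread within each group was wide beside the gap between them. Pcx did not pass the 1.5-fold null (adjusted p = 0.15), except without TIL replicate 3 (adjusted p = 0.026). Me2, the mitochondrial malic enzyme, which makes pyruvate from malate (chromosome 18, 73769903 to 73815449, mm10), was at 100, 111 and 112 CPM in TIL and at 152, 153 and 147 CPM in Sp. All TIL libraries lay below all Sp libraries (1.38-fold lower, log2 -0.46, SE 0.06, adjusted p = 1.9e-05). Markers of B cells and macrophages were lower in the same libraries, and their part in the fall of Me2 was not tested.

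Ratios of related genes within a library do not depend on scaling. The cytosolic Idh1 had 0.0496, 0.0718 and 0.0636 counts for each count of the mitochondrial Idh2 in TIL and 0.354, 0.325 and 0.345 in Sp. For Slc25a12 over Slc25a13 the ratio was 3.83, 4.35 and 3.81 in TIL and 15.5, 12.9 and 16.6 in Sp. Aralar counts thus exceeded citrin counts in each library but by much less in TIL. The stretch that Slc25a12 shares with Adpgk leaves some doubt about its counts. Got1 over Got2 was 0.336, 0.338 and 0.337 in TIL and 0.228, 0.244 and 0.231 in Sp, with the same doubt about Got2. Sucla2 over Suclg2 was 1.56, 1.41 and 1.75 in TIL and 2, 1.99 and 2.03 in Sp. Suclg2 carries a like doubt, since the near-identical Gm15163 was at 17.8 CPM in TIL and 13.6 CPM in Sp. Mdh1 over Mdh2 was 0.624, 0.656 and 0.714 in TIL and 0.767, 0.749 and 0.755 in Sp. Idh2 over Idh3a was 0.263, 0.252 and 0.219 in TIL and 0.413, 0.415 and 0.412 in Sp. In each of the 6 pairs the groups did not overlap. The two-sided exact permutation p was 0.1, the smallest that 3 against 3 allows (0.1 adjusted over the 6 pairs), so none could pass 0.05. Ratios of other gene pairs were not computed, and 74.5% of all genes tested did not overlap in CPM.

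**Figure D3:**
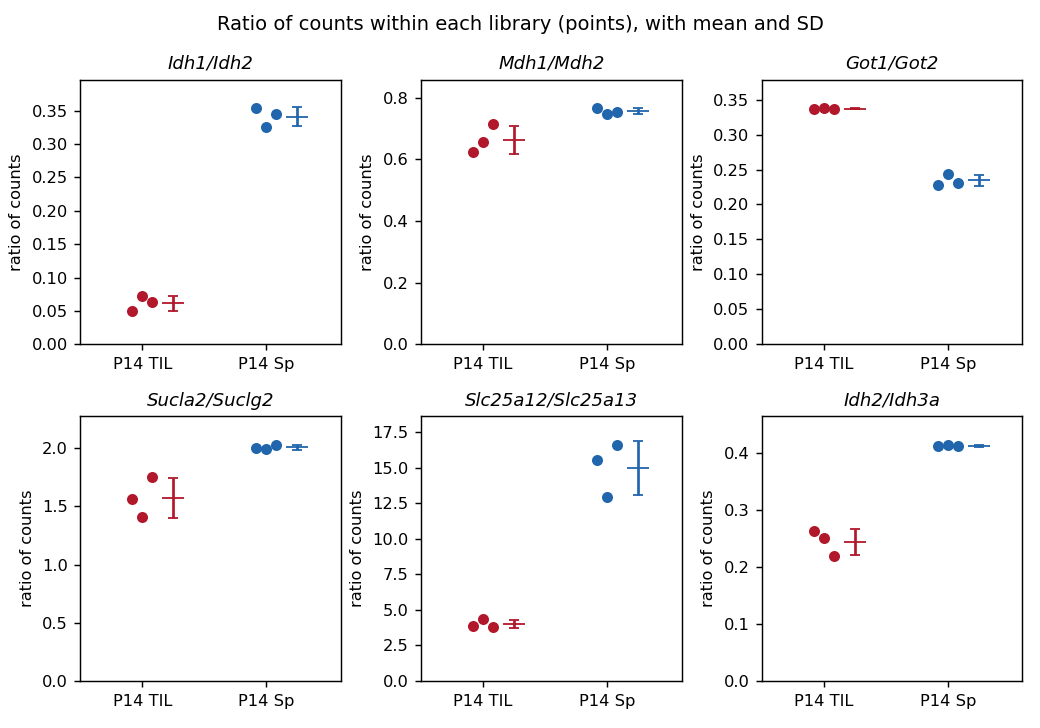
Ratio of counts of 2 related genes in each library (points), with mean and SD beside them, TIL left of Sp, on axes that start at 0. The Idh1 to Idh2 ratio is at most 0.0718 in TIL and at least 0.325 in Sp, and of the 6 pairs only Got1 to Got2 has a higher ratio in TIL.

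Set per length, the same 7 genes were the lowest of the 31 in both groups and moved by at most 3 ranks, while Got2 ranked 7 in TIL and 14 in Sp. The Got2 ranks are uncertain, because Got2-ps1 (113 CPM in TIL, 55.8 CPM in Sp) and Gm10874 (133 and 64.5 CPM) may hold its counts. Got2 itself was at 229 CPM in TIL and 114 CPM in Sp, and ranks with those counts added were not computed. Levels here are CPM per kilobase of the principal GENCODE transcript (RPKM, n = 3). Mdh2 led in both groups, at 301 RPKM in TIL and 167 RPKM in Sp, followed by Sdhb at 190 RPKM in TIL and 143 RPKM in Sp. Sdha (101 to 102 RPKM) and Sdhd (99.4 to 105 RPKM) could not be ordered in TIL beyond their spread. Idh1 was the lowest of the 31 in TIL at 0.945 RPKM and ranked 28 in Sp at 5.29 RPKM. Gpt2 was the lowest in Sp at 0.406 RPKM and ranked 29 in TIL at 2.85 RPKM. Pcx (1.01 to 1.53 RPKM) and Slc25a13 (1.27 to 1.46 RPKM) overlapped in Sp, while in TIL Slc25a13 (4.34 to 4.82 RPKM) lay above Pcx (1.82 to 2.41 RPKM). Got1 ranked 17 in TIL at 37.5 RPKM, level with Dlst, and 24 in Sp at 13 RPKM.

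**Figure D4:**
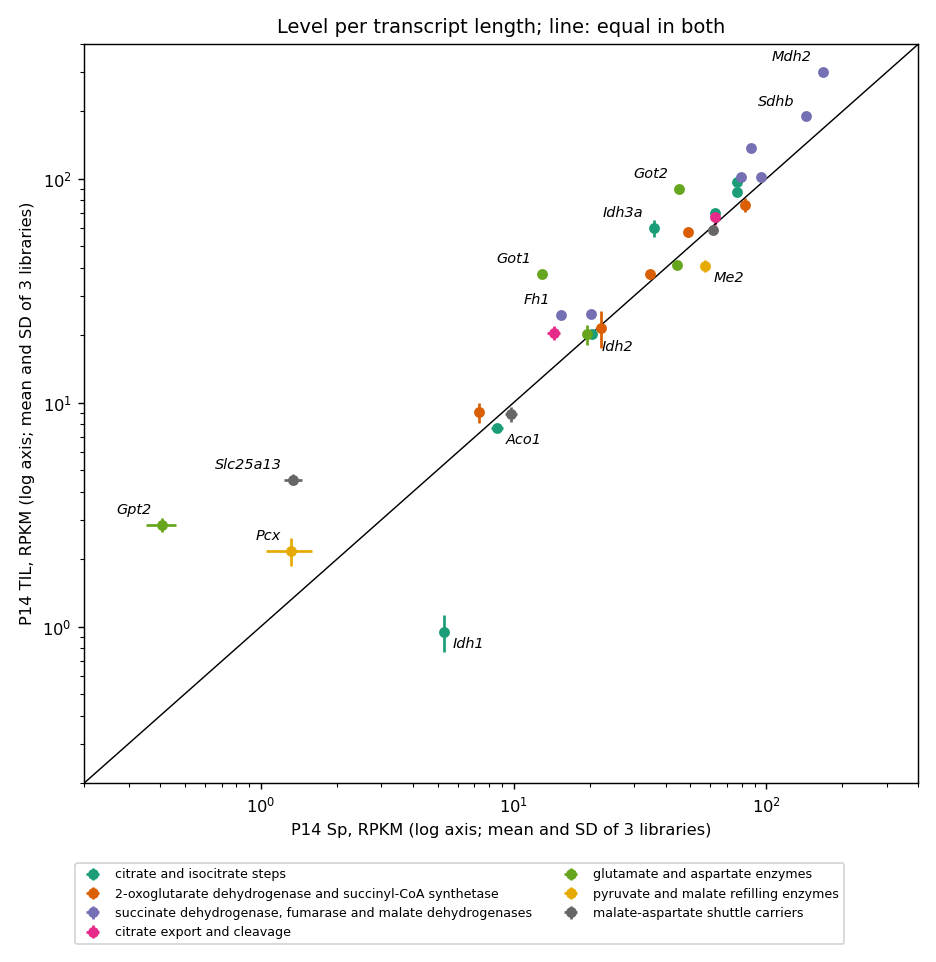
Mean level per transcript length in TIL (vertical) against Sp (horizontal), both on log axes, with SD of 3 libraries as bars and a line of equal level. Gpt2, Slc25a13 and Got1 lie well above the line, Idh1 well below it, and Mdh2 is at the top in both groups.

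Of 55 further genes of glutamine, proline, aspartate, acetate and lactate metabolism and of TCA enzyme assembly, 54 were in the table and 42 were tested. In TIL 22 of these were higher and 14 lower by the same edgeR test, and 6 did not pass (all genes: 34.8% higher and 35.9% lower). Past the 1.5-fold null, 12 were higher and 4 lower (all genes: 14.9% higher and 17.5% lower). The 3 higher genes with the smallest p were Asns, asparagine synthetase, which uses aspartate and glutamine (81.5 ± 9.2 CPM in TIL, 5.01 ± 0.237 CPM in Sp, log2 4.05), the lactate dehydrogenase gene Ldha (2441 ± 37.2 CPM in TIL, 801 ± 11.2 CPM in Sp, log2 1.64) and Gpd2, the mitochondrial glycerol-3-phosphate dehydrogenase (65.4 ± 1.55 CPM in TIL, 27.7 ± 1.87 CPM in Sp, log2 1.27). The 3 lower genes with the smallest p were the acetyl-CoA synthetase genes Acss2 (22.2 ± 1.83 CPM in TIL, 68 ± 1.82 CPM in Sp, log2 -1.59) and Acss1 (55.8 ± 2.97 CPM in TIL, 104 ± 2.56 CPM in Sp, log2 -0.87), and Gpd1, the cytosolic glycerol-3-phosphate dehydrogenase. Gpd1 had 3 counts over the TIL libraries and 128 over Sp, a ratio of 43.3-fold lower in TIL (95% counting interval 14.5 to 213).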

How the data were processed

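Per the submitters' processing notes, bcl2fastq 2.20.0.422, STAR 2.3, featureCounts and mm10 were used. The annotation release, strand setting and multi-mapping rule are not stated. The authors deposited raw counts per gene for 6 libraries of 50 bp single reads, without normalization. Symbols came from GENCODE M21 (54587 of 55335 identifiers matched with version). The 31 genes and the other lists were chosen with earlier results of these data known.

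Counts were tested with edgeR 4.0.16 (quasi-likelihood F-test and glmTreat at 1.5-fold, TMM, filterByExpr with minimum count 10 and minimum total 15) in R 4.3.3, with Benjamini-Hochberg adjustment over all genes tested. The procedure was tested on simulated data in which few genes changed, equally up and down, and both groups had the same dispersion. That simulation does not cover the many changed genes or the unequal spread of these libraries. SE is the absolute log2 fold change over the square root of F, and 95% intervals are 1.96 SE, unadjusted. CPM is a count over the library total; RPKM divides it by the length of the longest APPRIS principal transcript. Ratios used the exact permutation test of SciPy 1.17.1. Alternatives used limma 3.58.1 and DESeq2 1.42.0.

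Each pair of libraries differed beyond counting noise (chi-square per degree of freedom from 2.19). Since no label ties libraries to separate animals, the spread behind each p-value could be technical. Near-identical gene models were sought at 95% identity over 200 bases or more. For Dlst the match was the coding gene Rap2a (95.7% identical over 325 bases), whose counts were not added. Got2, Idh3b, Mdh1 and Slc25a11 overlap exons of a gene on the opposite strand by 0.1 to 9% of their exon length. Besides the 31 genes, named were the 3 further pathway genes with the smallest p in each direction and leading markers. The planned comparison of protein sequences was not made. Intervals on counts cover counting error only.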

Additional observations from a re-analysis of the deposited data

How the results depend on the processing

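Under 15 alternatives (other scalings, filters and tests, the replicate block, each library left out, and near-identical gene models summed, the last added after seeing the data), 20 to 24 of the 31 genes passed, in place of 22. Under the 13 of these fitted with edgeR (all but limma-voom and the DESeq2 Wald test), 7 to 10 passed the 1.5-fold null, in place of 9. Of the 22 called genes, 20 kept their direction and call in all 15, and Dlst and Sdha lost theirs in most. Of genes that did not pass, Idh2 changed sign with upper-quartile scaling (-0.04), library totals alone (-0.02), the filter at a mean of 1 CPM (-0.01) and without Sp replicate 1 (-0.0023; -0.0023 to 0.04 with 1 library left out). With 1 library left out, Ogdh ranged from -0.10 to 0.01, above 0 without TIL replicate 3, and Sucla2 from -0.16 to 0.07, above 0 without TIL replicate 1 or 2. With upper-quartile scaling, Aco1 (-0.18, adjusted p = 0.034) and Glud1 (-0.13, adjusted p = 0.04) passed as lower, and without the count filter Acly passed as higher (0.16, adjusted p = 0.03). The cause was not tested.

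Equal replicate numbers are not stated to mark 1 mouse, and deviations of equal-numbered libraries correlated at -0.000787, 0.0157 and 0.00242, all under 0.1. With the replicate block, 20 of the 31 genes and 13772 of all genes passed, in place of 22 and 13983. Without 1 library the difference in the log2 ratio of Idh1 to Idh2 ranged from -2.6 to -2.33 and that of Slc25a12 to Slc25a13 from -2.01 to -1.83. Depth limits Idh1 in TIL and Gpt2 in Sp most, at under 100 counts a library.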
